A study of Mus musculus with 26 samples.

Results

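The genes described here are 9 regulators of Hox chromatin: Ezh2, Ezh1, Eed, Suz12, Jarid2 and Mtf2 of Polycomb repressive complex PRC2, Cbx2 and Bmi1 of PRC1, and the histone demethylase gene Kdm6b. They were chosen by their gene symbols, 9 of 55141 genes listed in the count table, and all 9 passed the filter on low counts, which kept 17769 genes in the fit of all libraries and 16043 in the fit of the stages. Polyadenylated RNA had been sequenced from mouse gastruloids, clusters of embryonic stem cells grown so that they lengthen and form tissues of the embryonic trunk. There were 26 libraries of 8 lines with edits in the HoxB cluster, collected between 96h and 168h after aggregation, and 8 of the 15 groups of line and time held 1 library. Library totals ran from 18746411 to 37716547 counts. Whether replicates were separate cultures is not in the labels, and the p-values therefore reflect only how these samples spread, which may be technical. The sources used here give neither the number of gastruloids per library nor the meaning of i9-13 and CBS.

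All 8 lines carry HoxB Del/Del(i9-13), the controls included. The lines InsDel7to10, InsDel5to10 and InsDel8to10 carry Ins(CBS5-10) with Del(CBS7-10), Del(CBS5-10) or Del(CBS8-10). With Inv(CBS5-10) added to Ins(CBS5-10) there are clone 1 (InvClone1) and clone 2 (InvClone2), and InvDel7to10 has Del(CBS7-10) beside both alleles. Ins carries Ins(CBS5-10) alone, and Del has no allele beyond the shared one. At 120h there were 2 libraries each of InsDel7to10, InsDel5to10 and InvClone2, 1 each of InsDel8to10 and InvDel7to10, 4 of InvClone1, 3 of Ins and 3 of Del. For 144h, InvClone1 had 2 libraries and InvDel7to10, InsDel8to10, Ins and Del had 1 each, and InvClone1 alone was also sampled at 96h and 168h, with 1 library each. The labels give each library 1 of 4 library names: ISML_first (4 libraries, Ins and Del), ISML_second (10, of 5 lines at 120h and 144h), ISML_third (10, among them every library of InsDel7to10, InsDel5to10 and InvClone2) and TruSeq_second (2, InvClone1 at 120h).

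PRC2 places methyl groups on histone H3 at the site called H3K27, with Ezh2 or Ezh1 as its catalytic subunit and Eed and Suz12 as core partners. PRC1 binds this mark through chromobox proteins such as Cbx2 and adds ubiquitin to histone H2A, and the enzyme Kdm6b removes methyl groups from H3K27. Together PRC2 and PRC1 keep Hox genes silent until their time and place of expression in the embryo, and mice that lack Cbx2 or Bmi1 show shifted identities of vertebrae.

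The promoters of 4 members are shown because the comparisons below turn on these genes: Bmi1 was the only member past the threshold between times, Ezh2 and Suz12 differed with the library name, and Ezh1 stood lowest of the 9 per transcript length. Each sequence holds the 250 bases before the RefSeq start in GRCm38.p6, read along the gene's strand. They span chr6:47595031-47595280 on the minus strand for Ezh2, chr11:101226464-101226713 on the minus strand for Ezh1, chr11:79992856-79993105 on the plus strand for Suz12 and chr2:18676768-18677017 on the plus strand for Bmi1. Capitals mark matches on either strand, overlaps included, to the CCAAT box, to the GC box with the letters GGGCGG, or to the E-box with the letters CACGTG.
Ezh2: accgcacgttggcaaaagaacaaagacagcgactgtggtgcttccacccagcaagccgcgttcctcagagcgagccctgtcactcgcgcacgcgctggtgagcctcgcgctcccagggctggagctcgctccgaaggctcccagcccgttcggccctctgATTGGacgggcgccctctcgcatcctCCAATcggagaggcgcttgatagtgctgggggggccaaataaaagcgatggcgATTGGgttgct
Ezh1: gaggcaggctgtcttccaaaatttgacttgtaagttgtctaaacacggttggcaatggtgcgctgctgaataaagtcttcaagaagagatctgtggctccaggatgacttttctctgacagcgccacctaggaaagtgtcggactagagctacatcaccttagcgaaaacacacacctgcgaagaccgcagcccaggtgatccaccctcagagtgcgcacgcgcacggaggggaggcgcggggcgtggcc
Suz12: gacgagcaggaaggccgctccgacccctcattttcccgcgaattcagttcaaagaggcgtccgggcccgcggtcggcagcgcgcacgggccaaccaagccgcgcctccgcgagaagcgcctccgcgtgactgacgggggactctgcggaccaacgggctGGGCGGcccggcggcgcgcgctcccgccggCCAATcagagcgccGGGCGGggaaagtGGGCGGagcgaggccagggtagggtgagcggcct
Bmi1: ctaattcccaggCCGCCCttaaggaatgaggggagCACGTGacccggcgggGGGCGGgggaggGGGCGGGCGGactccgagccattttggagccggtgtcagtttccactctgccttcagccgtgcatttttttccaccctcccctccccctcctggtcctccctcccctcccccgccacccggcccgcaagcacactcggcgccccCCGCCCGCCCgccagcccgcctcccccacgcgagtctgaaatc

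The Ezh2 window held 3 CCAAT matches and no GC box, the Suz12 window 1 CCAAT match and 3 GC boxes, and the Bmi1 window 6 GC boxes, some of them overlapping, and 1 E-box. In the Ezh1 window none of the 3 motifs was found, nor the TATA box with the letters TATAAA, which was searched as well. Among 32851 RefSeq windows of the same length, 33.8% held a CCAAT box, 32.7% a GC box, 6.02% an E-box and 12.4% a TATA box. CG dinucleotides numbered 37 in Suz12, 23 in Ezh2, 21 in Bmi1 and 14 in Ezh1, against a median of 6 over all windows. RefSeq windows were matched by symbol for 7 of the 9 members, and these matches describe letters, not binding.

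Several libraries stood apart, by quality measures or by values of the members themselves. Mitochondrial genes took 0.0864% of the counts in replicate 2 of InvClone1 at 144h, against 0.587% to 1.51% in the other libraries. In replicate 2 of InvClone1 at 120h 54.8% of listed genes had a count, against 37.5% to 43.4%. Replicate 1 of InvClone1 at 120h was set apart by the members, with the highest Ezh2 and the lowest Kdm6b values of all 26. Its mitochondrial share of 0.909% and its 39.0% of listed genes with a count lay within the ranges of the others. Over genes with 10 or more counts in a pair, it differed more from the other InvClone1 libraries at 120h than those did from each other. Chi-square per degree of freedom was 117 to 138, against 33.0 to 66.4. It is also the only ISML_third library among them. Leaving it out remains a choice made on member values. Several fitted results on the members that rest on the libraries that stood apart are given with and without them, and others only with them. The time course of InvClone1 has replicate 1 as its only ISML_third library at 120h. In bulk RNA of this kind, fewer cells of a type and less RNA per cell cannot be told apart. Tissue markers of the gastruloid trunk were present. Summed presomitic markers reached 361 ± 42.4 CPM at 120h (counts scaled to 1e+06 per library). Summed somite markers reached 1049.8 ± 55.98 CPM at 120h (SD, n = 5 ISML_second libraries for both). The blood gene Gata1 had no count in 18 of 26 libraries. The other endothelial and blood markers listed had counts in all 26, with medians from 1.75 (Etv2) to 29.98 CPM (Kdr).

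Per transcript length, Ezh2 led the 9 genes in every library. Its median over the 26 libraries was 72.9 FPKM (the authors' FPKM scale divides fragments by transcript length and by depth), followed by Cbx2 at 48.8 FPKM. A middle group had medians of 27.1 (Eed), 24.5 (Mtf2), 21.4 (Suz12), 21.4 (Kdm6b) and 20.4 FPKM (Bmi1). Jarid2 had a median of 16.7 FPKM and Ezh1 of 3.17 FPKM. Ezh2 exceeded Cbx2 in 26 of 26 libraries, Cbx2 exceeded Eed in 25, and Jarid2 exceeded Ezh1 in 26. The neighbours in the middle were not separated in this way: Suz12 exceeded Kdm6b in 15 of 26 libraries and Kdm6b exceeded Bmi1 in 13. FPKM values summed to between 249207 and 374568 per library. Rescaled to 1e+06 per library, they left every gene at its rank except that Bmi1 then stood before Kdm6b.

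**Figure D1:**
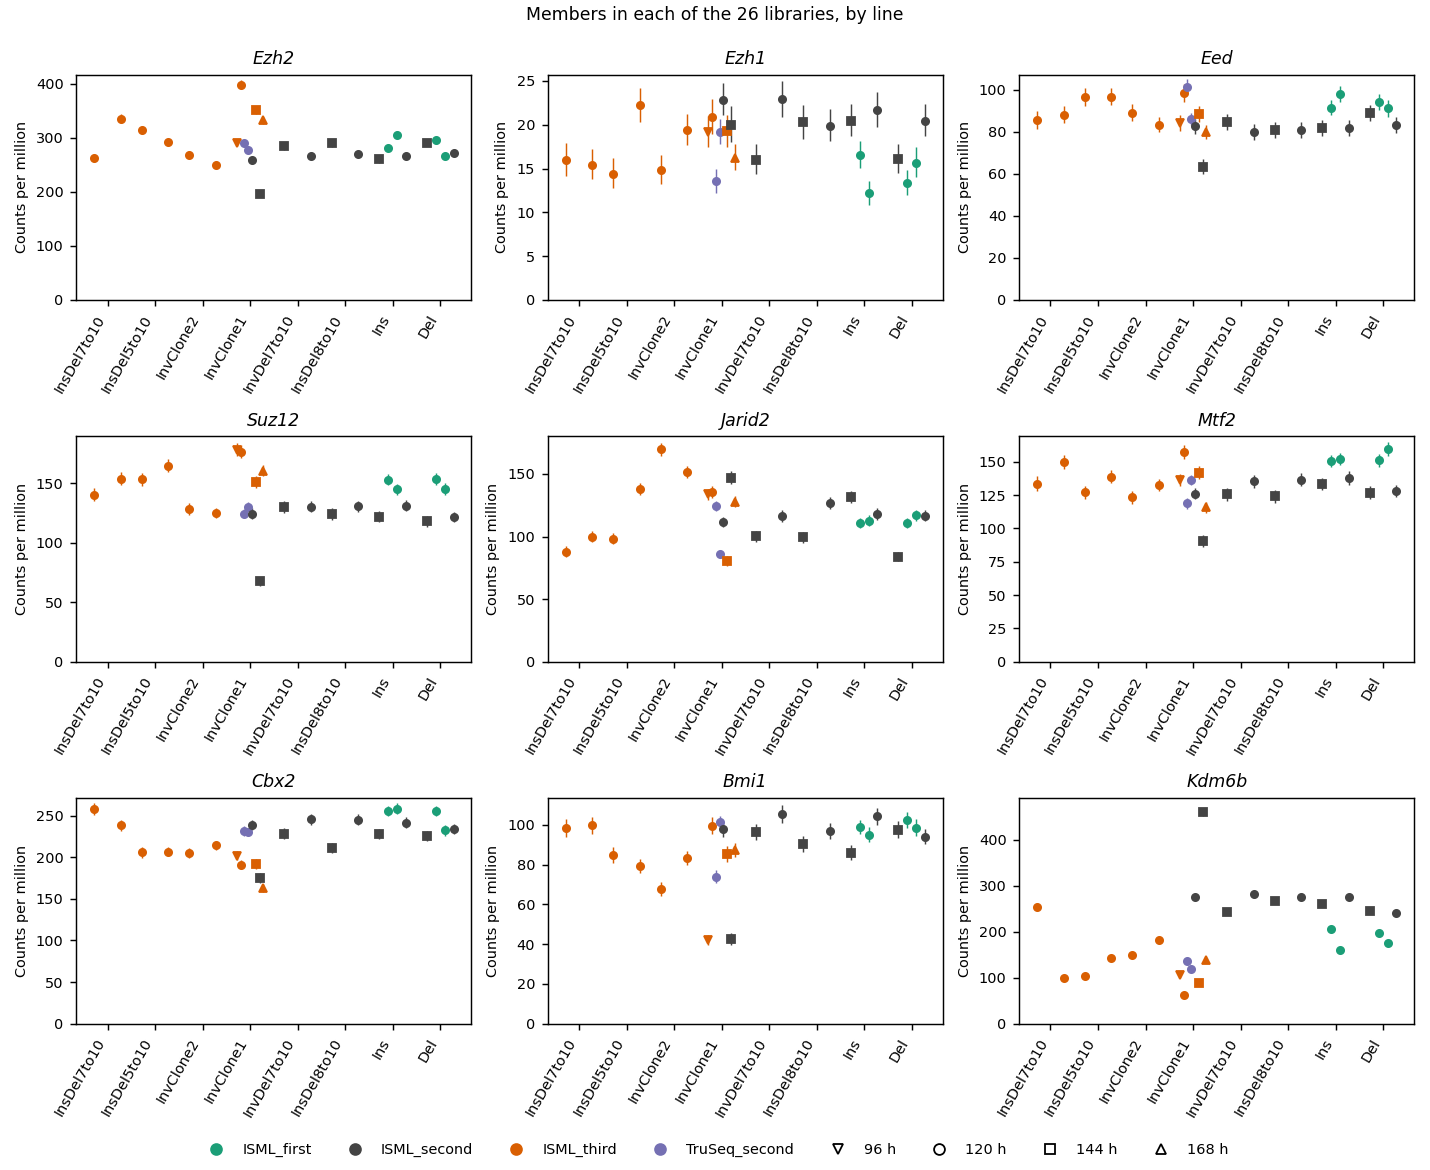
CPM of each member in all 26 libraries, by line, with colour for the library name, symbol for hours after aggregation and bars for the exact 95% Poisson interval, which covers counting error only. Kdm6b spans 62.5 to 460.4 CPM, and Bmi1 is lowest in the 96h library and in replicate 2 of InvClone1 at 144h.

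Ezh2, the catalytic subunit of dividing cells (chromosome 6, 47530139 to 47595341 in mm10), was the most abundant of the members per length and differed little between stages outside InvClone1. At 120h it had 263 and 336 CPM in InsDel7to10, 315 and 292 CPM in InsDel5to10 and 269 and 251 CPM in InvClone2. InvClone1 had 398, 291, 278 and 258 CPM, Ins 282, 306 and 267 CPM and Del 296, 267 and 273 CPM. Replicate 1 of InvClone1 was the highest, InsDel5to10 lay above InvClone2 without overlap, and the InsDel7to10 libraries lay on either side of InsDel5to10. Within the ISML_second libraries, Ezh2 had 196, 285, 290.4, 261 and 291 CPM at 144h in InvClone1, InvDel7to10, InsDel8to10, Ins and Del, against 258, 267, 271, 267 and 273 CPM at 120h in the same lines. InvClone1 was lower at 144h, Ins differed little, and the other 3 lines were slightly higher. The fitted change was -0.01 ± 0.08 on the log2 scale (SE; edgeR quasi-likelihood test, adjusted p = 0.956), and 0.07 without the InvClone1 pair (adjusted p = 0.122).

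Ezh1, the catalytic subunit known from resting cells (chromosome 11, 101191115 to 101226463), was scarce throughout, with a lowest value of 12.2, a median of 19.2 and a highest value of 22.9 CPM over the 26 libraries. Ezh2 exceeded it 15.2 to 40.3-fold on the FPKM scale, with a median of 24.9. In ISML_second libraries Ezh1 had 19.99, 15.97, 20.3, 20.5 and 16.1 CPM at 144h, against 22.9, 22.9, 19.9, 21.7 and 20.5 CPM at 120h, in the order of lines given for Ezh2. It was lower at 144h in 4 of 5 lines, by a fitted -0.20 ± 0.10 (log2), which did not pass the threshold (edgeR, adjusted p = 0.233).

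Eed, which reads the H3K27 mark (chromosome 7, 89954654 to 89980983), and Suz12, the scaffold of the complex (chromosome 11, 79993106 to 80034123), are the core partners of the catalytic subunits. At 120h Eed had 85.4 and 88.02 CPM in InsDel7to10, 96.4 and 96.7 in InsDel5to10, 88.98 and 83.3 in InvClone2, 98.3, 101, 86.1 and 82.5 in InvClone1, 91.4, 97.9 and 81.9 in Ins and 93.96, 91.1 and 83.1 in Del. InsDel5to10 lay above InsDel7to10 and InvClone2 and within the range of InvClone1 and of Ins. Suz12 had 140.3 and 154 CPM in InsDel7to10, 154 and 165 in InsDel5to10, 128 and 125 in InvClone2, 177, 125, 130.4 and 125 in InvClone1, 153, 145 and 131 in Ins and 154, 145 and 122 in Del. Its InsDel5to10 libraries lay above both InvClone2 libraries, a fitted difference of 0.33 ± 0.13 (log2) that did not pass after adjustment (edgeR, unadjusted p = 0.0277, adjusted p = 0.762).

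Between stages Suz12 had 67.6, 129.998, 124, 122 and 118 CPM at 144h, against 125, 130.5, 131, 131 and 122 CPM at 120h (InvClone1, InvDel7to10, InsDel8to10, Ins, Del). It was lower at 144h in 5 of 5 lines, but the InvClone1 pair differed by -0.88 and the other 4 pairs by -0.11 to -0.01 on the log2 scale. The fitted -0.20 ± 0.12 did not pass (edgeR, adjusted p = 0.332), and the fit without that pair gave -0.05 (adjusted p = 0.354). Eed had 63.3, 84.7, 80.6, 81.7 and 88.8 CPM at 144h, against 82.5, 79.7, 80.8, 81.9 and 83.1 CPM at 120h. InvClone1 was far lower at 144h, InvDel7to10 and Del were higher and the other lines nearly equal, and the fitted change was -0.02 ± 0.08 (edgeR, adjusted p = 0.887).

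Jarid2 and Mtf2 are accessory subunits that help bring PRC2 to CG-rich DNA. Jarid2 (chromosome 13, 44729535 to 44921643) had its highest values in InvClone2, 169.5 and 152 CPM. InsDel7to10 had 87.9 and 99.9 CPM, InsDel5to10 98.4 and 138, InvClone1 135, 124, 86.1 and 112, Ins 111, 113 and 118 and Del 111, 117 and 117 CPM, all at 120h. In CPM both InvClone2 libraries thus exceeded every other library of any line and time, which ran up to 147 CPM. On the FPKM scale the 7 ISML_third libraries at 120h, 2 of them InvClone2, had a Jarid2 median of 20.5 and a highest value of 22.8. Some libraries of other lines therefore lay near the highest value on that scale. InsDel5to10 against InvClone2 gave -0.44 ± 0.24 (edgeR, unadjusted p = 0.0875, adjusted p = 0.771), so the difference did not pass the test. At 144h Jarid2 had 147, 100.1, 99.3, 132 and 83.9 CPM, against 112, 116, 127, 118 and 117 CPM at 120h, in the same order of lines. InvClone1 and Ins were higher at 144h and the other 3 lines lower.

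Mtf2 (chromosome 5, 108065729 to 108109004) had 90.4, 125, 124, 133 and 127 CPM at 144h, against 126, 135, 136, 138 and 128 CPM at 120h, and was lower at 144h in 5 of 5 lines. The pairs outside InvClone1 differed by -0.14 to -0.01 (log2). The fit over all 5 lines gave -0.14 ± 0.08 (edgeR, adjusted p = 0.284). Mtf2 overlaps Tmed5, which had a median of 31.6 CPM, and since the strand setting of the counting is unknown here, their reads may not be fully separated. At 120h Mtf2 lay between 119 and 159.7 CPM in all 18 libraries (median 136).

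Cbx2, the chromobox subunit that carries PRC1 to H3K27-methylated chromatin (chromosome 11, 119022962 to 119031270), had 175, 228, 212, 228 and 225 CPM at 144h in InvClone1, InvDel7to10, InsDel8to10, Ins and Del, against 239, 246, 245, 241 and 234 CPM at 120h. It was lower at 144h in 5 of 5 lines, and each 144h value lay below all 5 values at 120h. Its fitted change of -0.16 ± 0.07 had the smallest adjusted p of the 9 members in this comparison and did not pass (edgeR, adjusted p = 0.175). Without the InvClone1 pair it was smaller, -0.10, and passed (edgeR, adjusted p = 0.0388). At 120h Cbx2 had 258 and 238 CPM in InsDel7to10, 206 and 207 in InsDel5to10, 205 and 214 in InvClone2, 191, 232, 231 and 239 in InvClone1, 256, 259 and 241 in Ins and 256, 232 and 234 in Del. InsDel7to10 and InsDel5to10 did not overlap, with a fitted difference of 0.27 ± 0.12 that failed the adjustment (edgeR, unadjusted p = 0.0373, adjusted p = 0.434).

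Bmi1, a PRC1 subunit known for repressing the cell-cycle inhibitor locus Cdkn2a (chromosome 2, 18677018 to 18686629), was the one member past the threshold between times. In InvClone1 the single ISML_third libraries held 42.1 CPM at 96h, 99.5 at 120h, 85.3 at 144h and 87.1 CPM at 168h. The 96h library was low and the 3 later ones lay close together. The 168h value rests on 2441 counts (exact 95% Poisson interval 83.7 to 90.6 CPM) and the 96h value on 1037 (interval 39.6 to 44.7 CPM). Bmi1 was higher at 168h by 1.05 ± 0.28 (log2, SE) and passed the threshold (edgeR quasi-likelihood test, adjusted p = 0.0239). Each time is 1 library, assumed to vary like the replicated groups. Leaving out the 3 libraries that stood apart gave 1.06 (adjusted p = 0.00218).

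One other library had as little Bmi1: replicate 2 of InvClone1 at 144h with 42.6 CPM. The remaining 24 libraries ran from 67.8 to 105 CPM. In ISML_second libraries Bmi1 had 42.6, 96.4, 90.3, 85.8 and 97.6 CPM at 144h, against 97.7, 105, 96.8, 104 and 94.1 CPM at 120h. The InvClone1 pair differed by -1.20 and the other 4 by -0.28 to 0.05 on the log2 scale. The fit gave -0.30 ± 0.16 over 5 lines (edgeR, adjusted p = 0.256) and -0.10 without InvClone1 (adjusted p = 0.105), neither past the threshold.

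**Figure D2:**
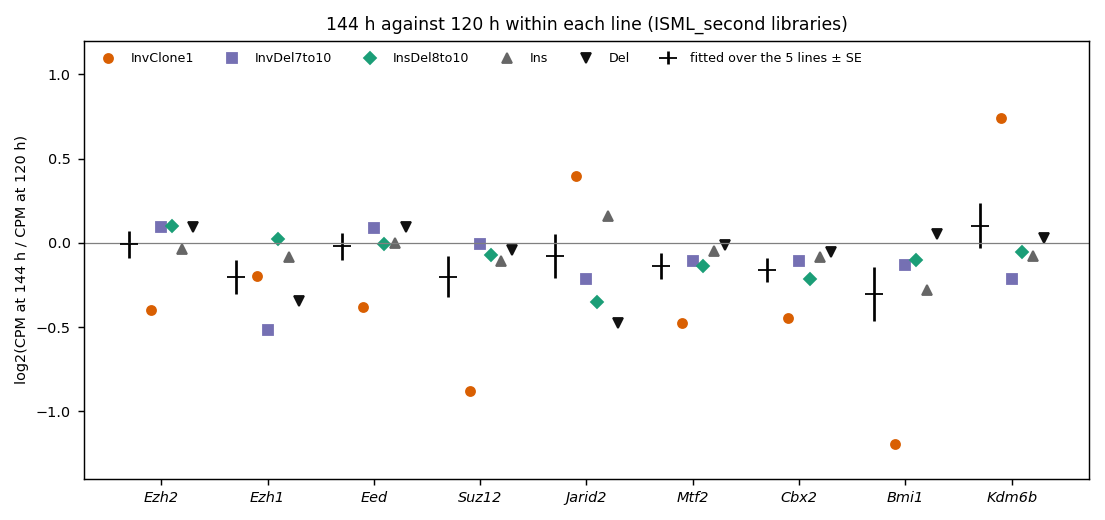
Difference between 144h and 120h on the log2 scale for each member in each of 5 lines (ISML_second libraries, 1 per line and stage), with the fitted value ± SE as a black cross. Suz12, Mtf2 and Cbx2 are below 0 in all 5 lines, and InvClone1 lies far from the other lines for Suz12, Bmi1 and Kdm6b.

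Kdm6b, which removes H3K27 methylation (chromosome 11, 69398508 to 69413675), varied most of the 9, from 62.5 to 460.4 CPM with a median of 189. At 120h InsDel7to10 had 254 and 98.7 CPM, InsDel5to10 104 and 143 and InvClone2 149 and 181. InvClone1 had 62.5, 137, 119 and 275 CPM, Ins 205, 160.3 and 276 and Del 197, 176 and 240.1 CPM. Within InvClone1 at 120h alone the highest library exceeded the lowest 4.40-fold, against 1.23 to 1.69-fold for the other 8 members, and its 4 libraries carry 3 library names. The antisense gene Kdm6bos had at most 0.579 CPM.

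Between stages Kdm6b had 460.4, 242, 267, 261 and 245 CPM at 144h in InvClone1, InvDel7to10, InsDel8to10, Ins and Del, against 275, 281, 276, 276 and 240.1 CPM at 120h. InvClone1 alone stood far above its 120h value, by 0.74 on the log2 scale, and the other 4 lines differed by -0.22 to 0.03. The fitted 0.10 ± 0.13 changed sign to -0.07 without InvClone1, and neither passed (edgeR, adjusted p = 0.654 and 0.203). The ISML_third libraries of InvClone1 had 106 CPM at 96h, 62.5 at 120h, 88.01 at 144h and 138 CPM at 168h. The low value at 120h rests on replicate 1, which stood apart, and the other 3 InvClone1 libraries at 120h, of other library names, all lay above the 96h value. The fit of 168h against 96h gave 0.38 ± 0.47 (edgeR, adjusted p = 0.656).

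**Figure D3:**
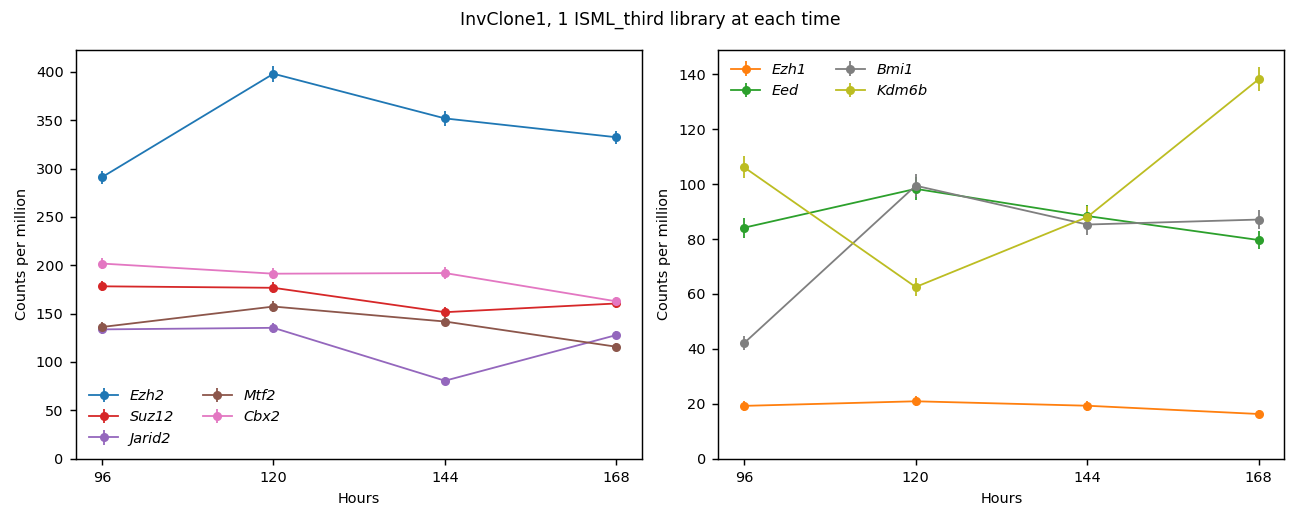
CPM of the 9 members in the single ISML_third libraries of InvClone1 at 96h, 120h, 144h and 168h, with exact 95% Poisson intervals (counting error only). Bmi1 is at 42.1 CPM at 96h and between 85.3 and 99.5 CPM later, and the 120h library is replicate 1, which stood apart.

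Over the 5 lines, 144h against 120h gave 0 of 9 members past the threshold, where 15.1% of all 16043 genes tested passed (9.33% higher and 5.81% lower at 144h). Fitted changes of the members ran from -0.30 (Bmi1) to 0.10 (Kdm6b), with a median of -0.14 against -0.01 over all genes tested. That median includes the InvClone1 pair. Without the pair the changes of Suz12, Bmi1 and Cbx2 were smaller and those of Ezh2 and Kdm6b changed sign, as given above. With all 5 lines no member had an unadjusted p under 0.05 in edgeR, and DESeq2 called 0 as well. Without the InvClone1 pair 1 member, Cbx2, passed, while the count over all genes changed to 4934, against 2429 with it. Tissue markers moved in the same comparison: 6 of 6 neural tube and 8 of 8 neuronal markers were higher at 144h, and 6 of 7 presomitic and 6 of 7 somite markers lower, all past the threshold. The remaining somite marker was higher, as were 4 of 7 endoderm markers with 1 lower, and of 6 endothelial and blood markers tested 1 was higher and 2 lower. Summed neural tube markers were 366 to 586 CPM at 144h, against 127 to 187 CPM at 120h, and presomitic markers 138 to 176 CPM at 144h, against 303 to 407 CPM at 120h. Replication and mitosis markers summed to 4284 to 4804 CPM at 144h, against 4248 to 4485 CPM at 120h. The part of these shifts in the members' values was not tested.

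For InvClone1, 168h against 96h gave 1 of 9 members past the threshold, Bmi1, where 15.3% of 17769 genes passed (8.56% higher and 6.75% lower at 168h). The share of members called, 1 of 9, is close to that background. Among the other 8, Cbx2 had 202, 191, 192 and 163 CPM at 96h, 120h, 144h and 168h and a fitted -0.31 ± 0.16 (edgeR, adjusted p = 0.232). Mtf2 had 136, 157, 142 and 116 CPM and Ezh2 291, 398, 352 and 332 CPM at the same times. Mtf2, Ezh2 and Eed were highest at 120h in these 4 libraries, but that library is replicate 1, which stood apart. The other 3 InvClone1 libraries at 120h, of other library names, had 291, 278 and 258 CPM of Ezh2, below the values at 144h and 168h. Jarid2 had its lowest value, 80.5 CPM, at 144h. Beside these values, 5 of 6 neural tube and 6 of 8 neuronal markers were higher at 168h and 6 of 7 presomitic markers lower. Of 7 somite markers 4 were higher and 2 lower. Of 8 pluripotency markers 1 passed, lower at 168h. Summed neural tube markers were 18.6, 77.3, 349.6 and 558 CPM at 96h, 120h, 144h and 168h, and presomitic markers 1204, 159.995, 101 and 228 CPM, and their part in the Bmi1 value was not tested.

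In the edgeR fit of all 26 libraries no member passed between any of the edited lines compared at 120h. Some alternative settings in edgeR did call members, as given further on. Ins against Del, which differ by the Ins(CBS5-10) allele, gave 0 of 9 members past the threshold, where 0.00563% of genes (1 gene) passed, and fitted differences from -0.01 to 0.07 on the log2 scale. InvClone1 against Ins also gave 0 of 9, where 0.0169% of genes passed, with differences from -0.25 to 0.25. Under the alternatives these reached -1.05 for Kdm6b with the replicate block and 1.08 for Jarid2 without InvClone1 replicate 4, none past the threshold. InsDel5to10 against InvClone2 gave 0 of 9 (background 0.152%), from -0.44 for Jarid2 to 0.33 for Suz12. InsDel7to10 against InsDel5to10 gave 0 of 9 (background 0.253%), from -0.33 for Jarid2 to 0.51 ± 0.33 for Kdm6b. With the replicate number as a block, which pairs Ins with Del, 2 genes and 0 members passed between these lines. DESeq2 called 0 members in each of the 4 comparisons, and edgeR gave unadjusted p-values under 0.05 for 1 member each between InsDel5to10 and InvClone2 (Suz12) and between InsDel7to10 and InsDel5to10 (Cbx2).

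The Kdm6b difference between InsDel7to10 and InsDel5to10 depended on which InsDel7to10 library was kept. Without replicate 2 of InsDel7to10 it was 1.04 and passed (edgeR, adjusted p = 0.00996), and without replicate 1 it was -0.32 (adjusted p = 0.760). No somite or pluripotency marker passed between these lines in edgeR, but their summed levels varied among the libraries. Summed somite markers were 1421 and 1125 CPM in InsDel7to10, against 641 and 781 CPM in InsDel5to10, and pluripotency markers 9.55 and 4.24 CPM, against 3.90 and 52.1 CPM. Their part in the members' values was not tested. A test over all 8 lines at 120h together likewise gave 0 of 9 members, where 0.163% of genes passed (edgeR quasi-likelihood F-test). Its smallest values were for Ezh2 (unadjusted p = 0.0166, adjusted p = 0.306), Suz12 (0.0203 and 0.323) and Kdm6b (0.0478 and 0.432). With DESeq2 all 3 passed (adjusted p = 0.0300, 0.0427 and 0.0105), where 1309 genes passed in all. In both tests InsDel7to10, InsDel5to10 and InvClone2, all ISML_third, connect to the other lines only through the term for the library name. That term rests on InvClone1 libraries, some of which stood apart, so line and library name are not cleanly separated here.

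More members passed for the library name than for line or time. In the fit of all 26 libraries 5 of 9 members differed with it, where 37.5% of all genes did. They were Suz12 (edgeR F-test, adjusted p = 0.00290), Kdm6b (0.00383), Ezh2 (0.00506), Mtf2 (0.0163) and Eed (0.0441). Against ISML_second, ISML_third libraries were fitted higher in Suz12 by 0.83 ± 0.14, in Ezh2 by 0.73 ± 0.13, in Mtf2 by 0.48 ± 0.12 and in Eed by 0.37 ± 0.11 on the log2 scale. Kdm6b went the other way, with -2.26 ± 0.35. None of the 9 passed for ISML_first or TruSeq_second against ISML_second, where Kdm6b had -0.48 ± 0.28 and -1.16 ± 0.37.

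In that fit ISML_third and ISML_second meet only in InvClone1, at 120h and at 144h, and 2 of the 4 libraries concerned stood apart. Without replicate 2 at 144h, 2 of 9 members passed the F-test, Suz12 and Kdm6b, where 4047 of 17712 genes did, and the ISML_third terms were 0.50 ± 0.13 for Suz12, 0.61 ± 0.17 for Ezh2 and -2.15 ± 0.48 for Kdm6b. Without replicate 1 at 120h, 6 of 9 passed, the 5 above and Bmi1, where 5160 of 17792 genes did. The terms were then 1.16 ± 0.13 for Suz12, 1.00 ± 0.21 for Bmi1 and -0.87 ± 0.25 for Jarid2. Without replicate 2 at 144h they were 0.50, 0.02 and 0.27 in the same order of genes. The Jarid2 term thus changed sign with the library left out, while the Kdm6b term without replicate 1 was -2.39 ± 0.49. The CPM values show the same contrast for Kdm6b over other lines. At 120h the 7 ISML_third libraries ran from 62.5 to 254 CPM (median 143), against 240.1 to 281 CPM (median 276) in the 5 ISML_second libraries, with replicate 1 of InsDel7to10 as the only overlap. Line and library name are largely confounded among them and cannot be told apart outside InvClone1.

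**Figure D4:**
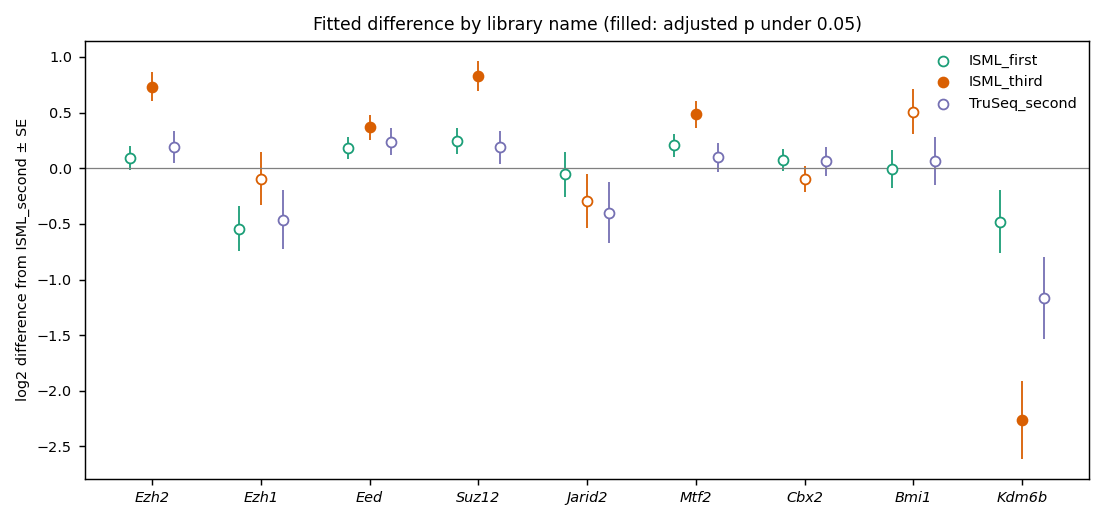
Fitted difference of each library name from ISML_second for the 9 members, on the log2 scale ± SE, filled where the adjusted p is under 0.05. Kdm6b lies at -2.26 for ISML_third, opposite to Ezh2, Suz12, Mtf2 and Eed.

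Ezh2 and Kdm6b ran opposite to each other across libraries. Per length, Ezh2 exceeded Kdm6b 1.09-fold in replicate 2 of InvClone1 at 144h (50.3 and 46.2 FPKM) and 15.3-fold in replicate 1 of InvClone1 at 120h (94.6 and 6.19 FPKM). Pearson's r of log2 CPM over the 26 libraries was -0.82 for this pair, -0.73 for Suz12 and Kdm6b, and -0.66 for Eed and Kdm6b. Among PRC2 genes it was 0.79 for Ezh2 and Suz12, 0.75 for Suz12 and Mtf2, and 0.70 for Eed and Suz12, but -0.30 for Ezh2 and Jarid2. The 26 points share library names, lines and stages, so these values describe the set and carry no test. The libraries at both ends of the Ezh2 to Kdm6b ratio stood apart, replicate 1 at 120h by its values of these very genes. No r without them is given here. Ezh2 and Kdm6b also had opposite fitted ISML_third terms against ISML_second, 0.73 and -2.26 on the log2 scale.

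The genes whose profiles over the 26 libraries were most like each member were named by the highest Pearson's r of log2 CPM among 12225 genes. For Kdm6b they were Obsl1 (0.98), Klc2 (0.97) and Prr12 (0.97), and for Suz12 Zmym2 (0.95), Zfp654 (0.94) and Kdm6a (0.93). Kdm6a, the third for Suz12, encodes the X-linked H3K27 demethylase related to Kdm6b. Ezh2 was most like Gjc1 (0.93), Smarcad1 (0.92) and Pde7a (0.92), Eed like Cetn3 (0.93), Wls (0.92) and Fam49b (0.92), and Mtf2 like Sp4 (0.90), Sp3 (0.90) and Fyttd1 (0.89). Cbx2 had Snrpf (0.88), Zbed3 (0.87) and Pcbp1 (0.86), Bmi1 Cdkn2aip (0.87), Klf3 (0.85) and Stxbp6 (0.83), and Ezh1 Kcnk6 (0.90), Stard8 (0.84) and Vwa5b1 (0.83). Jarid2 had no close match, with Des (0.65), Limch1 (0.64) and Cers4 (0.62) at the top. After the mean of each library name was subtracted, an alternative chosen after the data were seen, these r values ran from 0.67 to 0.96.

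Cbx6 and Cbx8, chromobox genes of PRC1 like Cbx2, rose at 144h. Of 12 further genes of canonical PRC1, 4 rose and 1 fell, where 9.33% and 5.81% of all genes did. Cbx8 had 9.37, 7.55, 7.16, 7.99 and 6.09 CPM at 144h in InvClone1, InvDel7to10, InsDel8to10, Ins and Del, against 5.37, 4.70, 4.40, 4.79 and 5.14 CPM at 120h, a fitted 0.65 ± 0.13 (log2; edgeR, adjusted p = 0.0107). It was higher in 5 of 5 lines with no overlap between stages. Cbx6 ran from 71.5 to 101 CPM at 144h, against 53.8 to 61.6 CPM at 120h (0.43 ± 0.08, adjusted p = 0.0104). Phc2, a Polyhomeotic subunit that lies outside the rule for named genes and was added after its values were seen, had 0.20 ± 0.06 (adjusted p = 0.0482). Cbx6 and Cbx8 passed in every alternative run, whereas Phc2 missed the threshold in most alternatives, DESeq2 among them (adjusted p = 0.0539 to 0.197).

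The gene that fell was Pcgf2, a close relative of Bmi1 in PRC1. It had 65.01, 74.1, 75.4, 74.5 and 74.5 CPM at 144h in the same order of lines, against 88.8, 88.5, 92.9, 88.7 and 89.4 CPM at 120h. Every line was lower at 144h and the stages did not overlap, with a fitted -0.28 ± 0.06 (edgeR, adjusted p = 0.0145), which missed the threshold without the Del, InsDel8to10 or InvDel7to10 pair (adjusted p = 0.0610 to 0.0742). Among 4 genes of the H2A deubiquitinase, Asxl3 rose by 0.39 ± 0.10 (adjusted p = 0.0352), higher in 4 of 5 lines, and missed the threshold without the Del, Ins, InsDel8to10 or InvDel7to10 pair or the line term (0.0629 to 0.146). None of 6 further PRC2 genes tested, 12 variant PRC1 genes, 2 other H3K27 demethylase genes and 11 Trithorax and COMPASS genes passed in edgeR, where 2, 1, 0 and 1 of them had an unadjusted p under 0.05, against 4608 of all 16043 genes. DESeq2 called 5 of the 36 further Polycomb and demethylase genes tested. The share of all genes that DESeq2 called is not given here, so that count has no background beside it. In edgeR 6 of these 36 passed in all, where 15.1% of all genes did, a share near this background. Leaving out a line's pair gave 2 (Del), 3 (InsDel8to10), 3 (InvDel7to10), 4 (Ins) or 14 (InvClone1), while the count over all genes was 1463, 1424, 1473, 1702 and 4934 in the same order.

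Over the longer span in InvClone1, 1 canonical PRC1 gene rose and 1 fell at 168h against 96h. The catalytic subunit gene Ring1 had 11.3, 6.19, 12.6 and 32.1 CPM at 96h, 120h, 144h and 168h (168h against 96h 1.51 ± 0.35, edgeR adjusted p = 0.0110), while Scml2 had 16.6, 5.36, 4.26 and 4.57 CPM (-1.86 ± 0.53, 0.0304). Asxl3 had 18.8, 68.9, 80.7 and 75.8 CPM at those times and rose by 2.01 ± 0.26 (adjusted p = 0.000372), the 96h library being the low one as it was for Bmi1. Rybp of variant PRC1 (-0.80 ± 0.23, 0.0313) and Wdr5 of COMPASS (-0.47 ± 0.14, 0.0399) fell, and Wdr5 missed the threshold without the filter on low counts (adjusted p = 0.255). In all 4 of 36 further Polycomb and demethylase genes passed, against 15.3% of all genes. None of the 6 PRC2 genes tested was among them.

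Between lines 2 of these 36 genes differed at 120h, Rbbp7 and Uty, where 0.163% of all genes did. Rbbp7, a histone-binding subunit of PRC2 and of other complexes, had 770.3 and 821 CPM in InsDel5to10, against 319.8 to 506 CPM (median 379) in the 24 libraries of all other lines and times. InsDel7to10 had 369 and 373 CPM and InvClone2 417 and 388 CPM, both like the rest. InsDel5to10 was higher than InvClone2 by 0.98 ± 0.14 (log2; edgeR, adjusted p = 0.0117), and InsDel7to10 against InsDel5to10 gave -1.10 ± 0.14 (adjusted p = 0.00645), which missed the threshold in the compared libraries alone, without InsDel5to10 replicate 1 and without InsDel7to10 replicate 1 (0.0525 to 0.449). All 6 libraries compared are ISML_third. Without any 1 of the InsDel5to10 or InvClone2 libraries the size against InvClone2 was 0.93 to 1.04 but no longer passed (adjusted p = 0.0862 to 0.302).

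Uty, the Y-linked relative of Kdm6a, split the lines into a group with counts and a group near 0. InsDel7to10, InvClone1, InvClone2 and InvDel7to10 had 3 counts in 14 libraries together, all in replicate 2 of InvClone1 at 120h, so 13 libraries had a count of 0. In those 13 the X-linked copy Kdm6a, of similar sequence, had 604 to 2829 counts. InsDel5to10, InsDel8to10, Ins and Del had 18.8 to 39.4 CPM in all 12 libraries (median 25.98). The test over the 8 lines gave an adjusted p of 1.3e-05 for Uty and 0.0436 for Rbbp7 (edgeR F-test), and Rbbp7 missed the threshold without the library term, with a replicate block or with most single libraries left out (0.0507 to 0.184). Uty counts and Rbbp7 levels do not follow the same lines, since Rbbp7 was high in only 1 of the 4 lines with Uty.

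**Figure D5:**
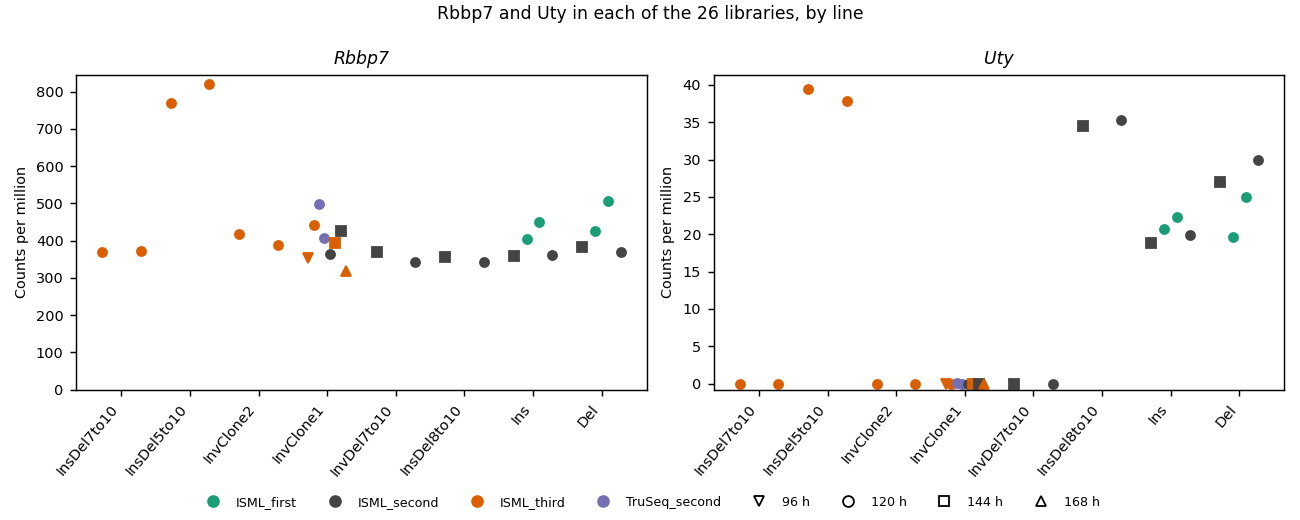
CPM of Rbbp7 and Uty in all 26 libraries, by line, with colour for the library name and symbol for hours after aggregation. Rbbp7 is high in both InsDel5to10 libraries only, and Uty lies at or near 0 in InsDel7to10, InvClone2, InvClone1 and InvDel7to10.

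The library name also went with levels in these lists. Of the 36 further genes, 18 differed with it, where 37.5% of all genes did, as did 8 of 11 Trithorax and COMPASS genes. Those of smallest adjusted p, up to 2 a list, were Ring1 (0.000993), Kdm6a (0.00274), Asxl3 (0.00278), Phc2 (0.00314), Kdm2b (0.00327), Phf1 (0.00596), Epop (0.00689), L3mbtl2 (0.00802) and Asxl2 (0.0410), and of the COMPASS genes Setd1a (0.00226) and Kmt2d (0.00366). Without replicate 1 of InvClone1 at 120h, Phc2 (0.0658), L3mbtl2 (0.121) and Asxl2 (0.166) missed the threshold, and without replicate 2 at 144h Kdm2b (0.0566) and Asxl2 (0.148) did. Of 12 replication and mitosis markers 7 differed with the library name too, although their summed level stayed between 4205 and 5385 CPM over the 26 libraries. The part of the markers in the members' differences was not tested.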

How the data were processed

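Per the labels, polyadenylated RNA from 26 gastruloid libraries was sequenced. The authors deposited a table of raw counts per gene and a table of FPKM per gene, and the submitters' processing notes name cutadapt 1.18, STAR version 2.7.10a, Cufflinks version 2.2.1 and mm10. The strand setting and version of the counting were not given in the sources used here. In both deposited files, 4 columns each and 8 in all matched no sample and were not used.

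Counts were fitted with edgeR version 4.0.16 in R version 4.3.3 (TMM normalization, filterByExpr with a minimum count of 10, robust quasi-likelihood F-tests, Benjamini-Hochberg adjustment over all genes tested, threshold 0.05). The stages were compared in the 10 ISML_second libraries with line as a term (4 residual degrees of freedom). All other comparisons used 26 libraries with group and library name as terms (8 residual degrees of freedom), so single libraries borrow the spread of replicated groups. CPM are counts scaled to 1e+06 by TMM-scaled totals. Levels of different genes were compared only in the deposited FPKM. DESeq2 version 1.42.0 was an alternative, as were other size factors, filters, terms and left-out libraries. The code was tested on simulated counts with the same spread for all genes and no differences by library name. That checks the code and not its power in these data. Poisson intervals cover counting error only.

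The members and lists were chosen with earlier results of these data known. Named genes were the 9 members, from each list up to 4 of smallest adjusted p past the threshold between stages and up to 2 in each other comparison, and the 3 genes most alike each member (mean of at least 1 CPM, prior count 2, predicted gene models left out). One gene that this rule names is counted with its list and is not reported here. Same-numbered Ins and Del libraries deviated together (r = 0.51, 0.26 and 0.64). In both lines replicates 1 and 2 at 120h are ISML_first and replicate 3 is ISML_second, and differences by library name were not removed. These r values therefore cannot tell a pairing from a shared library name, and the pairing rests on the replicate numbers.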

Additional observations from a re-analysis of the deposited data

Results flagged for a closer look

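A library lay far from the others of its group in 8 of 27 cases examined (9 members in 3 groups of 4 or 5 libraries), by the gap to its nearest neighbour as a share of the group's range. Chance flags about 1 in 20 groups, and the same libraries recur, so the 8 are not independent. Among the 4 InvClone1 libraries at 120h, replicate 1 had 177 CPM of Suz12 against 125 to 130.4 CPM in the others, and 191 CPM of Cbx2 against 231 to 239 CPM. It is the only ISML_third library of the 4, which carry 3 library names. The rate of 1 in 20 takes libraries of a group as alike and may not hold for them. Replicate 2 of that group had 73.9 CPM of Bmi1 against 97.7 to 101 CPM, and it was also the library with counts for the most genes. Among the 5 ISML_second libraries at 144h, replicate 2 of InvClone1 had 460.4 CPM of Kdm6b against 242 to 267 CPM in the other 4 lines. The same library had 67.6 CPM of Suz12 against 118 to 129.998 CPM, 90.4 CPM of Mtf2 against 124 to 133 CPM and 42.6 CPM of Bmi1 against 85.8 to 97.6 CPM. It was also the library with the low mitochondrial share. Among the 5 ISML_second libraries at 120h, Del replicate 3 had 240.1 CPM of Kdm6b against 275 to 281 CPM.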

How the results depend on the processing

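Counts of genes past the threshold between lines depended on the settings, and the cause was not tested. Without a filter on low counts 89 genes passed for Ins against Del, 383 for InsDel5to10 against InvClone2, 957 for InsDel7to10 against InsDel5to10 (1 member), 9 for InvClone1 against Ins and 2334 over all lines (2 members), against 1, 27, 45, 3 and 29 with it. DESeq2 called 2, 46 and 289 genes in the first 3 and 1309 over all lines (3 members). Without a term for the library name 6 genes passed for InsDel5to10 against InvClone2, 7 for InsDel7to10 against InsDel5to10 and 4 over all lines. The compared libraries alone gave 0 genes for Ins against Del (82 at an unadjusted p under 0.05) and 4 for InsDel7to10 against InsDel5to10.

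With the replicate number as a block in the compared libraries alone, 2 genes passed for Ins against Del, 932 for InsDel5to10 against InvClone2, 3 for InsDel7to10 against InsDel5to10 and 0 for InvClone1 against Ins (1386 unadjusted). In the second, 2 members passed, Suz12 (0.35, adjusted p = 0.0220) and Kdm6b (-0.41, adjusted p = 0.00734, edgeR), but those libraries share only a number (r = 0.32). The block changed no other call of a member. InvClone1 and Ins had r of 0.17, 0.40 and 0.057. InsDel7to10 and InsDel5to10 had r = -0.15, and the crossed pairing, chosen after seeing the data, gave 4 genes.

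With libraries left out in turn, 1424 to 4934 genes and 0 to 1 members passed between stages. The range was 3 to 9 genes for InsDel5to10 against InvClone2, 3 to 939 (0 to 1 members) for InsDel7to10 against InsDel5to10, 3 to 303 for InvClone1 against Ins, 4 to 1305 (0 to 2 members) over all lines and 4047 to 5160 (2 to 6 members) for the library name, this last chosen after seeing the data. InvClone1 against Ins gave the high count without InvClone1 replicate 4, and the lines at 120h and InsDel7to10 against InsDel5to10 gave it without InsDel7to10 replicate 2. Without most other single libraries 4 or 5 genes passed over the lines. Between stages the count was 1463 without the Del pair, 1424 without InsDel8to10 and 1473 without InvDel7to10. Single members changed sign when libraries were left out. On the log2 scale InsDel7to10 against InsDel5to10 then ran from -0.20 to 0.15 for Ezh2 (0.0051 in the compared libraries alone), -0.50 to 0.12 for Ezh1 and -0.32 to 1.04 for Kdm6b. InsDel5to10 against InvClone2 ran from -0.25 to 0.37 for Ezh1, -0.0087 to 0.12 for Mtf2, -0.024 to 0.27 for Bmi1 and -0.053 to 0.0099 for Cbx2. Between stages the ranges were -0.039 to 0.074 for Ezh2 (0.0054 without line as a term), -0.052 to 0.054 for Eed, -0.21 to 0.021 for Jarid2 and -0.069 to 0.18 for Kdm6b. Further Polycomb and demethylase genes past the threshold numbered 2 to 14 between stages with a pair left out. They numbered 10 at 168h against 96h without the filter. The count over all genes past the threshold in that setting is not given here, so the 10 has no background beside it. Over the named genes of the lists 50 of 266 alternative values lost the call, and 0 changed sign among those with a direction. The F-tests over lines and over library names have no direction, so their values could not change sign. Members of Ins against Del changed sign in 18 of 126 alternative values (from -0.10 to 0.16) and those of InvClone1 against Ins in 12 of 135 (-1.05 to 1.08), with no call changed. In FPKM rescaled per library Bmi1 ranked 6 and Kdm6b 7. Bmi1 at 168h against 96h stayed past the threshold in every alternative run (adjusted p = 0.000252 to 0.0252). Without the 3 libraries that stood apart, ISML_third shares no group with another library name, so the tests over lines and library names could not be fitted. With 1 library a group at 96h and 168h and 4 residual degrees of freedom between stages, small differences of the members may have gone undetected.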

Other observations

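Eed FPKM ran from 42.2 to 45.8 in ISML_first libraries at 120h and from 23.1 to 25.7 in ISML_second libraries, while its CPM ran from 91.1 to 97.9 and from 79.7 to 83.1. With FPKM rescaled to 1e+06 per library, Eed ran from 113 to 122 in the ISML_first libraries and from 87.6 to 94.8 in the ISML_second libraries.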
